A study of Homo sapiens with 12 samples.

Results

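Open chromatin of KYSE150 and KYSE510 control cells was compared, using the 6 control libraries among the 12 libraries of an ATAC-seq study of these cells. Each peak with a height of 3 or more on chromosomes 1 to 22 was taken from the 6 control lists, and peaks that overlapped by at least 1 bp were merged. This gave 205590 regions, of which 102916 held a peak in 1 library and 26348 in all 6. The 74791 regions (36.4%) with a peak in at least 3 libraries were tested for a difference between the lines. The remaining 6 libraries came from the same 2 lines with HCP5, a long non-coding RNA, silenced, and served here as a second set of libraries of each line.

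KYSE150 and KYSE510 are established human cell lines of oesophageal squamous cell carcinoma (ESCC), the cancer of the stratified lining of the gullet. Per the labels, all cells grew in RPMI-1640 with 10% FBS, and 3 control libraries were made from each line. The labels say only "control" and do not name the control agent, nor do they say whether the 3 libraries came from separate cultures, so p-values measure the spread between these libraries, which may be technical. A difference between the groups is a difference between these 2 lines, with 1 line of each kind. In ATAC-seq a transposase cuts DNA that is not wrapped in nucleosomes and loads it with sequencing adapters, so a peak marks an open stretch such as a promoter or an enhancer. Promoters of widely used genes are open in most cell types, whereas distal sites, many of them enhancers, are open in a cell-type-dependent way. Squamous epithelia are known for the transcription factors TP63, SOX2 and KLF5 and for the basal keratins KRT5 and KRT14.

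The values used are peak heights, the largest overlap of sequenced fragments in a peak, and with no read numbers in the values used the depth is unknown. A stand-in for depth is the background that the fold enrichment of each peak implies. That background was 0.101 to 0.103 height units in KYSE150 and 0.18 to 0.217 in KYSE510, a ratio of means of 1.95. KYSE150 libraries had 58698 to 61585 peaks of height 3 or more, and KYSE510 libraries had 101552 to 114555. Depth and line cannot be told apart by this design. Heights were therefore ranked within each library over all 205590 regions, with ties averaged and no peak counted as 0, and the ranks were turned into normal scores. A score difference of 1 is 1 unit of the standard normal scale. It is not 1 standard deviation of the scores, since regions without a peak share a tied rank. The scores were compared with limma, and a region was called where the Benjamini-Hochberg adjusted p over all tested regions was under 0.05. A region without a peak of height 3 had a percentile of 35.5 to 36.1 in KYSE150 and of 22.6 to 25.9 in KYSE510. Because a height of 3 is easier to reach at a higher background, the counts over all regions, by distance, by chromosome and for the gene lists are also given with the minimum raised to 6 in KYSE510, the height of 3 scaled by that ratio and rounded up. Counts for single genes' distal regions, 1 Mb windows and promoters paired with distal sites are at equal minimum heights alone.

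More regions were higher in KYSE510 than in KYSE150. Of the 74791 tested regions, 20300 (27.1%) were higher in KYSE510, 8970 (12%) were higher in KYSE150, and 45521 (60.9%) were not called. At an unadjusted p under 0.05 the limma counts were 22731 and 12287. KYSE510 accounted for 69.4% of the calls. With the minimum of 6 in KYSE510, 53423 regions were tested, 10930 were higher in KYSE510 and 11416 in KYSE150, so that KYSE510 then accounted for 48.9%. Among the 26348 regions with a peak in all 6 libraries, tested at equal minimum heights, 2393 were higher in KYSE510 and 5515 in KYSE150. The surplus of KYSE510 calls was therefore absent with scaled heights, and the counts leaned to KYSE150 where every library had a peak. Those last counts used ranks over all regions. Of these regions, 71.1 to 72.3% had no peak in the KYSE150 libraries and 45.2 to 51.9% had none in the KYSE510 libraries. An equal low height thus ranked higher in KYSE150, and the part of this in the lean to KYSE150 was not tested.

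Most KYSE510 calls had no KYSE150 peak of height 3, while most KYSE150 calls also had a KYSE510 peak. Of the KYSE510 calls, 16694 (82.2%) had no peak of height 3 in any KYSE150 library. The KYSE150 lists reach down to a height of 1, and at any height 5823 of the calls (28.7%) had no KYSE150 peak while 4651 had a weaker peak in all 3. The mean KYSE510 height was more than 1.95 times the mean KYSE150 height at 20279 of the 20300 calls. Of the KYSE150 calls, 2553 (28.5%) had no KYSE510 peak of height 3, and at 22 of the 8970 the mean height was not above that of KYSE510. A peak was present in all 6 libraries at 1886 of the KYSE510 calls and 3856 of the KYSE150 calls. Heights and ranks did not overlap between the lines at 20298 of the KYSE510 calls and 6180 of the KYSE150 calls. A region with no peak in the other line passed the filter on 3 libraries only through the line where it was high. Such regions had to differ, and the shares above describe the calls without supporting them. The median height in the higher line was 7.33 for KYSE510 calls and 8.67 for KYSE150 calls.

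**Figure D1:**
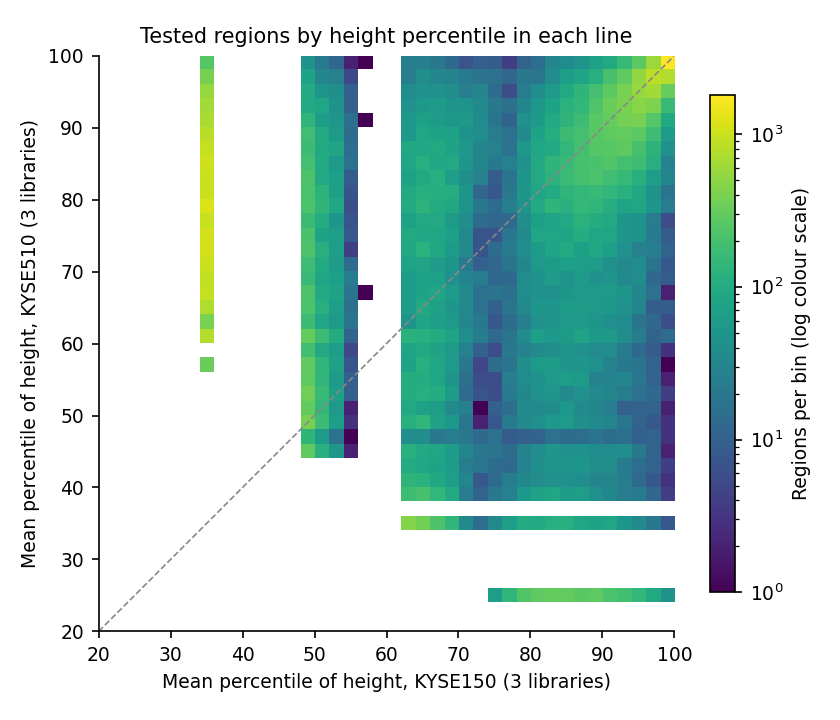
Mean percentile of peak height in the 3 KYSE150 libraries (x axis) and the 3 KYSE510 libraries (y axis) for the 74791 tested regions, coloured by the number of regions in each bin on a log scale, with the line of equal percentiles dashed. The densest bin is at the top right, where regions are high in both lines, and the column near 36 on the x axis holds the 16760 regions with a peak in all KYSE510 and no KYSE150 libraries.

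Distal sites were called more often than promoters, but the part of this higher in KYSE510 was mostly at sites without a KYSE150 peak. A region was called a promoter region within 1 kb of the start of a protein-coding gene and distal when it was over 5 kb from any. Both gene ends stood in for the start at 4022 genes without a listed start, which include all of chromosome 8. Of 12389 promoter regions, 14.5% were higher in KYSE510 and 8.89% in KYSE150. Of 56935 distal regions, 30.4% were higher in KYSE510 and 12.6% in KYSE150. Of these, 14621 distal and 1185 promoter regions had no KYSE150 peak of height 3 and had to differ. Among the regions with a peak in both lines, a subset chosen after the values were seen, 5.56% of 11055 promoter and 6.88% of 40180 distal regions were higher in KYSE510. In the same subset 8.62 and 12.5% were higher in KYSE150, by ranks over all regions, in which a peak of height 3 stood higher in KYSE150. Over all tested regions the share higher in KYSE510 was 13% where a gene start lay inside the region and 37.1% beyond 100 kb. The share higher in KYSE150 was 8.71 and 11.5% at the same distances. With the minimum of 6 in KYSE510, 12.1 and 12.7% of promoter regions and 23.1 and 23.9% of distal regions were higher in KYSE510 and KYSE150. In the silenced libraries 10.5% of promoter and 24% of distal regions were higher in KYSE510, while 8.69 and 8.49% were higher in KYSE150. There the share higher in KYSE150 was 9.19% with a start inside and 7.36% beyond 100 kb, so the excess of KYSE150 calls at distal sites was not seen in those libraries. These shares are descriptions, since regions are not replicates. A peak was present in all 6 libraries at 65.2% of tested promoter regions and at 28.9% of tested distal regions.

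**Figure D2:**
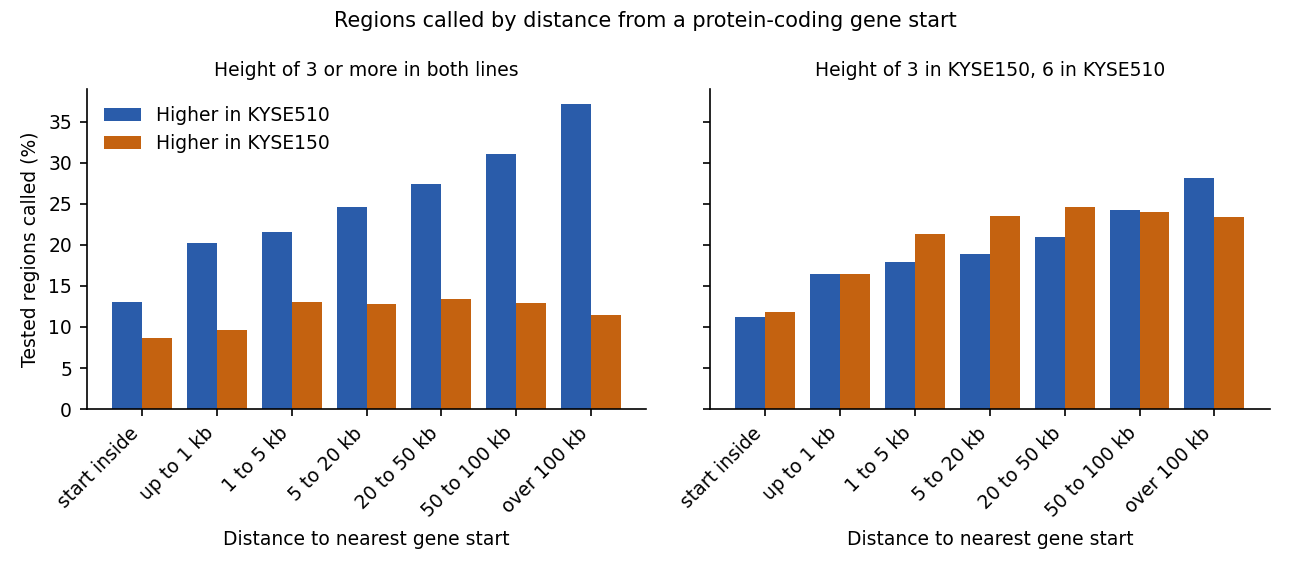
Percent of tested regions called higher in KYSE510 (blue) or KYSE150 (orange) by distance to the nearest protein-coding gene start, with a minimum height of 3 in both lines on the left and of 3 in KYSE150 and 6 in KYSE510 on the right. With equal minimum heights the KYSE510 share goes from 13% with a start inside to 37.1% beyond 100 kb, and with scaled heights it goes from 11.2 to 28.1%, beside 11.8 to 23.4% for KYSE150.

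The make-up of the single libraries showed a smaller promoter share in KYSE510. In KYSE150 18.6 ± 0.498% of the regions with a peak were promoter regions (SD, n = 3), and in KYSE510 12.7 ± 0.566%. The difference of -5.89 percentage points had the smallest p that 3 against 3 libraries allow (two-sided exact permutation p = 0.1). Its sign depended on the minimum height, at 0.165 with a minimum of 2 (exact permutation p = 0.9) and 2.78 with the minimum of 6 in KYSE510 (exact permutation p = 0.1).

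Distal sites tended to be called in the same direction as the promoter of their nearest gene. Distal regions were assigned to the nearest protein-coding gene within 100 kb. Near the 1090 genes whose promoter region was higher in KYSE510, 41.4% of distal regions were higher in KYSE510 and 6.8% in KYSE150. Near the 691 genes whose promoter region was higher in KYSE150, the shares were 18.4 and 27.6%. Near the 5664 genes with an uncalled promoter region they were 24.4 and 13.4%. Some segments were called mostly 1 way, such as chr18:3000000-3999999, where 85 of 91 tested regions were higher in KYSE510. The part of such segments in these shares was not tested.

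The promoter regions that differed most had no peak of height 3 in 1 line and were among the highest in the other. They were taken as the 6 regions per direction with the largest difference in mean percentile among calls whose heights and ranks did not overlap. Those higher in KYSE510 belonged to DHCR7, DUSP23, ACAT2, HS3ST3B1, ZNF761 and LMCD1, and those higher in KYSE150 to STARD3NL, ZNF140, FSCN1, ITPK1 and LRIF1, with the remaining region not reported here. The 250 bases before the start of 3 genes from each side are shown, as examples of the bases at promoters with a peak of height 3 in all libraries of 1 line and in none of the other. Sequences are from RefSeq (GRCh38.p14), written 5′ to 3′ on the strand of the gene, and capitals mark matches to the motifs named after them on either strand.
DHCR7 (chr11:71448394-71448643, minus strand): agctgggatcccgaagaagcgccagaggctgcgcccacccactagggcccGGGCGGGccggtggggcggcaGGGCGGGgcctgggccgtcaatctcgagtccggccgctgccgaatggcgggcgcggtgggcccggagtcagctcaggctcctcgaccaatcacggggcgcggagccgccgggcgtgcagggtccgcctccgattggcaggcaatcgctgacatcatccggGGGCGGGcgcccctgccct
DUSP23 (chr1:159780712-159780961, plus strand): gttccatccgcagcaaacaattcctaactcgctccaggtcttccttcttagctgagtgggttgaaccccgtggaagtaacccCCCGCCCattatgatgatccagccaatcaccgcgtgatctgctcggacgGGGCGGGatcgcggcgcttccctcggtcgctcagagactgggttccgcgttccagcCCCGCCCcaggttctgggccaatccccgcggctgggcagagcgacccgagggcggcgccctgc
HS3ST3B1 (chr17:14300831-14301080, plus strand): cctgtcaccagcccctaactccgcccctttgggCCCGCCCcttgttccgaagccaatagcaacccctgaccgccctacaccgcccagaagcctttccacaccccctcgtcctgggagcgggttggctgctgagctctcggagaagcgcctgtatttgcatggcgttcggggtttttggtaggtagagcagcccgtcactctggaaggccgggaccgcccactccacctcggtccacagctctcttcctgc
STARD3NL (chr7:38177995-38178244, plus strand): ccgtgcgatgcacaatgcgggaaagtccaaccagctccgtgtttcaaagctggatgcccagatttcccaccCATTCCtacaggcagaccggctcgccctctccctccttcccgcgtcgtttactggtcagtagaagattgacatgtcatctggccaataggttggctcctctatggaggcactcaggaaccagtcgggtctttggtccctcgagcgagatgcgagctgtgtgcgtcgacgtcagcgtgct
ZNF140 (chr12:133080673-133080922, plus strand): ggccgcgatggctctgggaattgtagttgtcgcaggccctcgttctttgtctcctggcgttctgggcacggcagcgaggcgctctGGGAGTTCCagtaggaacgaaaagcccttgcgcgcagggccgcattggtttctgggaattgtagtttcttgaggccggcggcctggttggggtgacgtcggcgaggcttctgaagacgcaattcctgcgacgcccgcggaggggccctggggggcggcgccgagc
ITPK1 (chr14:93036975-93037224, minus strand): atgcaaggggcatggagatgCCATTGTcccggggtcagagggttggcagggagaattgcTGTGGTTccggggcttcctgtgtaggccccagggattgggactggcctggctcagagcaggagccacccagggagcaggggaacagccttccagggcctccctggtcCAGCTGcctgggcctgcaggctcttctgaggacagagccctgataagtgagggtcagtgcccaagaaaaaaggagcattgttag

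The capitals in the DHCR7, DUSP23 and HS3ST3B1 windows are the SP/KLF motif GGGCGGG, which was in 44.5% of the 15100 promoter windows of the same length. In STARD3NL they are the TEAD motif GGAATG (10.1% of windows), and in ZNF140 the NF-kB motif GGGANTTCC (2.01%). In ITPK1 they are the SOX motif ACAATGG (1.85%), the RUNX motif TGTGGTT (2.85%) and the E-box CAGCTG (13.5%). The DHCR7 window held 30 CpG dinucleotides at 75.2% GC, against 2 CpG at 61.2% GC in the ITPK1 window. The median over all windows was 18 CpG at 63.2% GC.

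DHCR7 encodes the enzyme of the last step of cholesterol synthesis. Its promoter region (chr11:71448287-71448934) had heights of 292, 268 and 261 in the KYSE510 libraries and no peak of any height in the KYSE150 libraries. The score difference was 4.13 ± 0.108 (SE, n = 3 per line; limma adjusted p = 0.000259). The local background, the median background of peaks within the surrounding 500 kb divided by that of the library, was 12.7 in KYSE510 and 1 in KYSE150, and its part in the result was not tested. Over all tested regions the medians of this ratio were 1.81 and 1. The KYSE150 lists held more peaks, with medians of 213 to 218 in 1 Mb windows against 50 to 57 in KYSE510. The ratio in KYSE150 is thus taken over more weak peaks, and the ratios of the 2 lines are not like for like. Ranked by fold enrichment, the score difference was 2.59 and remained called (limma adjusted p = 0.000568). Fold enrichment was taken as height + 1 over local background + 1. With library backgrounds of 0.101 to 0.217 height units, it takes out only part of a raised local background.

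ACAT2, which makes acetoacetyl-CoA for the same pathway, had heights of 71, 66 and 65 in KYSE510 at chr6:159761893-159762612 and no peak of any height in KYSE150. DUSP23, a dual-specificity phosphatase, had 114, 86 and 78 in KYSE510 at chr1:159780457-159781205, and a single peak of height 2 in KYSE150. HS3ST3B1 encodes a sulfotransferase of heparan sulfate chains, and its region (chr17:14300672-14301407) had 79, 54 and 51 in KYSE510. The KYSE150 lists held 1 peak of height 1 there. The zinc finger gene ZNF761 (70, 58 and 44 in KYSE510) and LMCD1, a LIM-domain cofactor (58, 42 and 46), were likewise without a KYSE150 peak of height 3. The score differences of these 5 regions were 2.98 to 3.58, and their local background ratios in KYSE510 were 1.62 to 2.54, near the median of 1.81.

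STARD3NL encodes a membrane protein of late endosomes. Its promoter region (chr7:38177886-38178714) had heights of 66, 42 and 55 in KYSE150 and no peak of any height in KYSE510. The score difference was -3.79 ± 0.157 (SE, n = 3 per line; limma adjusted p = 0.000259). ZNF140, a zinc finger gene, had 41, 34 and 32 in KYSE150 at chr12:133079951-133081040 and no KYSE510 peak. The region 645 bp from the start of FSCN1, an actin-bundling protein of cell protrusions, had 27, 22 and 25 (chr7:5591239-5592171). ITPK1, an inositol phosphate kinase, had 21, 22 and 23 (chr14:93037052-93037788), and in the silenced libraries its score difference was -1.71, against -2.83 in the controls. LRIF1, a nuclear receptor cofactor, had 29, 19 and 18. The local background ratio in KYSE510 was 3.93 at FSCN1 and 3.42 at ITPK1.

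**Figure D3:**
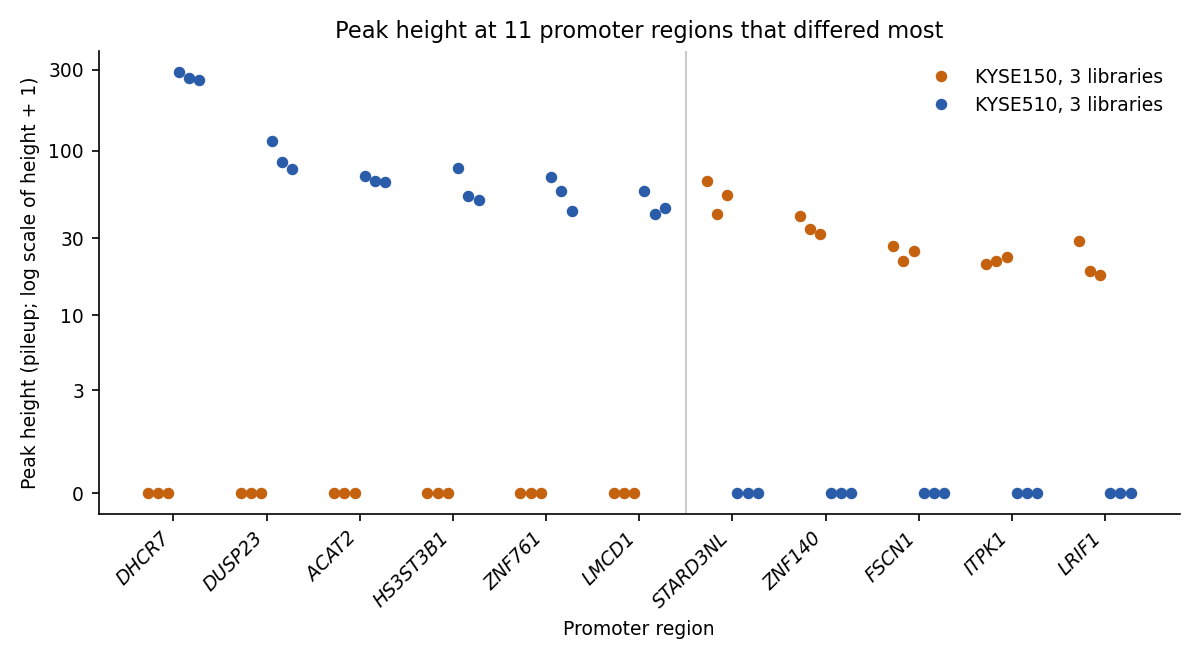
Peak height in each control library at 11 of the 12 promoter regions with the largest percentile differences, on a log scale of height + 1 labelled in heights, with heights under 3 drawn at 0. The 6 regions on the left lie between 42 and 292 in the 3 KYSE510 libraries (blue), and the 5 on the right between 18 and 66 in the 3 KYSE150 libraries (orange), with every library of the other line at 0.

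The distal regions that differed most fell partly in segments of high local background. The region with MYC as its nearest gene (chr8:128554746-128555643) lay 811795 bp from the nearer gene end, as chromosome 8 genes had no listed start. It had heights of 244, 286 and 295 in KYSE510 and no KYSE150 peak of any height. Regions nearest POU5F1B (chr8:127507272-127507977, 124, 123 and 116), GSDMC (chr8:128801114-128801937, 106, 93 and 115) and TNFRSF11B (chr8:118850032-118850640, 82, 112 and 79) were on the same chromosome arm. The local background ratio in KYSE510 was 8.31 at the MYC region, 13.5 at POU5F1B, 8.84 at GSDMC and 3.09 at TNFRSF11B, and 1 at each in KYSE150. Its part in these results was not tested. By rank of fold enrichment the score difference at POU5F1B was 2.28, against 3.78 by height. A region inside CNTN5, a neural adhesion gene, had 98, 75 and 82 at a ratio of 1.35 (chr11:99418872-99419426).

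In the other direction, a region in PTPN14, a phosphatase that restrains the Hippo-pathway effector YAP, had heights of 120, 118 and 115 in KYSE150 and none in KYSE510 (chr1:214427724-214428349). Its local background ratio was 5.28 in KYSE150, and its part in the result was not tested. At typical ratios of 1 to 1.18 in KYSE150 lay regions nearest REG3G (70, 47 and 61), in AZIN2 (49, 66 and 58), in SH3RF3 (35, 45 and 41) and nearest RLN2 (30, 57 and 39). None of the 4 had a peak of any height in KYSE510. In the silenced libraries the SH3RF3 region had 35, 35 and 26 in KYSE150 and 6, 6 and 5 in KYSE510, and its score difference fell from -3.47 to -1.98.

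A pair of neighbouring regions in PCBD2 went in opposite directions. The region at chr5:134925116-134925401 had 605, 591 and 609 in KYSE510 and none in KYSE150, and the region at chr5:134923783-134924018 had 62, 65 and 63 in KYSE150 and none in KYSE510. Both lie in nuclear copies of mitochondrial genes that the gene table names MTND5P11 and MTCYBP18. Reads of near-identical mitochondrial copies may have been placed there, so both are uncertain. When peaks within 100 bp were merged, the KYSE150 region became part of a larger one with a score difference of 0.43 (limma adjusted p = 0.0279), and by rank of fold enrichment its difference was -1.55.

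Counted by gene, the most distal regions higher in KYSE510 were near MYC (18 of 19 tested), TRPS1 (16 of 16), COLEC10 (15 of 16), EXT1 (14 of 26) and TGIF1 (13 of 13). MYC encodes the growth-promoting transcription factor named in the title of the study. Chromosome 8, which holds MYC, TRPS1, COLEC10 and EXT1, had no listed starts, so promoter regions there lie within 1 kb of either gene end. The promoter region of MYC, so defined, had heights of 8, 18 and 15 in KYSE150 and 83, 56 and 82 in KYSE510 (limma adjusted p = 0.00327), and the groups did not overlap. The local background ratio at MYC was 25.9 in KYSE510 and 1.06 in KYSE150. At TGIF1, a homeobox repressor of TGF-beta signalling on chromosome 18, the promoter heights were 35, 23 and 20 in KYSE150 and 371, 304 and 294 in KYSE510, at ratios of 1 and 19.7. The ratio in KYSE510 was 2.51 at TRPS1, 4.13 at COLEC10 and 8.3 at EXT1. The promoter of TRPS1, a GATA-type repressor, had 7, 6 and 5 in KYSE150 and 20, 12 and 15 in KYSE510, which did not pass the test (limma adjusted p = 0.0766). The part of the local background in these counts was not tested.

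The most distal regions higher in KYSE150 were near EGFR (12 of 20 tested), PTPN14 (9 of 14), CYRIB (9 of 19), EDIL3 (8 of 11) and ANKRD10 (8 of 12). EGFR is the receptor of epidermal growth factor. Its promoter heights of 18, 16 and 21 in KYSE150 and 24, 16 and 21 in KYSE510 overlapped and were not called (limma adjusted p = 0.311), and 2 of its distal regions were higher in KYSE510. PTPN14 had promoter heights of 61, 69 and 55 in KYSE150 and 43, 27 and 31 in KYSE510 (limma adjusted p = 0.00304), at a ratio of 4.1 in KYSE150. EDIL3, a secreted integrin ligand, had 13, 13 and 14 against 6, 7 and 5 (limma adjusted p = 0.00207), at ratios of 1 in KYSE150 and 1.61 in KYSE510.

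Calls were unevenly spread over the chromosomes. On chromosome 14 43.8% of tested regions were higher in KYSE510 and 4.28% in KYSE150, and on chromosome 18 the shares were 39.1 and 12.3%. With the minimum of 6 in KYSE510 the shares were 40.4 and 7.11% on chromosome 14 and 34.2 and 22.8% on chromosome 18. Chromosome 13 leaned to KYSE150, with 18.8% of regions higher in KYSE510 and 24.4% in KYSE150, or 9.49 and 44.5% with the raised minimum. Chromosomes 10 and 21 had KYSE150 shares of 20.7 and 21.2%, or 34.9 and 39.5%. The median local background ratio in KYSE510 was 2.06 on chromosome 14, 1.6 on chromosome 18, 1.62 on chromosome 10, 1.4 on chromosome 13 and 1.55 on chromosome 21, and 1 in KYSE150 on each. It was 2.11 on chromosomes 16 and 19, where 19.6 and 23.5% of regions were higher in KYSE510. The relation of the ratio to the share over the chromosomes was not tested. Fewer or more copies of a chromosome and less or more open chromatin per copy cannot be told apart from peak heights.

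**Figure D4:**
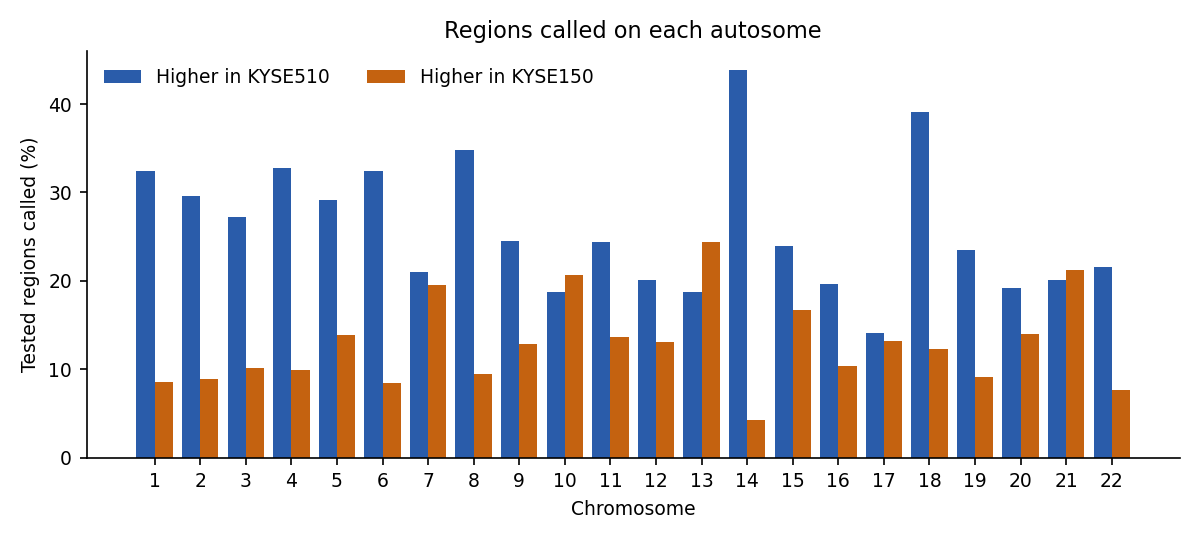
Percent of tested regions on each autosome called higher in KYSE510 (blue) or KYSE150 (orange). Chromosome 14 has the highest KYSE510 share at 43.8% and the lowest KYSE150 share at 4.28%, and on chromosomes 10, 13 and 21 the KYSE150 share is above the KYSE510 share.

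The 1 Mb windows with the largest shares called higher in KYSE510 were chr18:4000000-4999999 (24 of 24 tested regions, holding DLGAP1), chr8:128000000-128999999 (71 of 75) and chr18:3000000-3999999 (85 of 91, holding TGIF1, MYL12A and MYL12B). Their local background ratios were 3.92 to 4.11, 10.5 to 11.4 and 9.8 to 11.2 in the KYSE510 libraries and 0.998 to 1 in the KYSE150 libraries. The largest shares higher in KYSE150 were at chr9:5000000-5999999 (32 of 45), chr9:6000000-6999999 (30 of 46) and chr10:17000000-17999999 (22 of 36). The chromosome 9 windows hold CD274 and JAK2, and IL33 and KDM4C, at ratios of 1.36 to 1.39 and 1.39 to 2.14 in KYSE150. The chromosome 10 window holds VIM, at ratios of 0.998 to 1. The KYSE150 libraries listed 200 to 238 peaks of any height in each of the 3 KYSE510 windows, and their medians over 1738 windows were 213 to 218. Leaving out the regions where the ratio of either line was at least 2 times its median left 19076 of 71585 regions (26.6%) higher in KYSE510 and 8688 (12.1%) higher in KYSE150.

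For gene lists, each gene was given the highest-ranked region within 1 kb of its starts or, without a listed start, of either gene end. Among 11708 genes with a tested promoter region, 13.3% were higher in KYSE510 and 8.74% in KYSE150, and the median percentile difference was -0.159. Of these genes 909 had passed the filter through KYSE510 alone and 93 through KYSE150 alone, and such genes had to differ. Among the 10706 with a peak in both lines, 652 were higher in KYSE510 and 930 in KYSE150, by the same ranks over all regions. List counts are given beside these shares, and nothing is read from them about a list as a whole. The shares pool all chromosomes and were not matched to those of the list genes. On chromosome 14, for instance, 43.8% of tested regions were higher in KYSE510. At the minimum of 6 in KYSE510, 11.3 and 11.9% of 10713 genes were higher in KYSE510 and KYSE150.

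Single calls of list genes named here were lost under other settings. Counting peaks of any height, the calls of FOXE1, OVOL1, SPRR1A, FN1, TWIST2, HOXB9, the region of HOXC4 to HOXC6, EVPL, ALDH3A1, BMP4, HLA-DPB1, MX2, IL6, TNFSF10, NTRK2, RPL11 and RPS16 were not made. By rank of fold enrichment those of KLF5, ELF3, LAMB3, S100A2, EVPL, ZEB1, SIX4, IRX2, SOX9, IRX3, ALDH3A1, ME1, TAPBP, IL6, BMP4, WNT7B, WNT9A, TGFB2, DKK1, RPL13A, RPL18 and RPS29 were not made.

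The identity of both lines was checked at 8 genes of squamous and simple epithelium. KRT5 had heights of 17, 17 and 10 in KYSE150 and 12, 12 and 9 in KYSE510, which were not called (limma adjusted p = 0.0641). KRT8 (15, 14 and 16 against 22, 27 and 23) and KRT18 (10, 8 and 12 against 12, 19 and 9), the keratin pair of simple epithelium, were not called either, at limma adjusted p values of 0.469 and 0.794. The adhesion gene CDH1 had 7, 0 and 15 against 7, 8 and 19 (limma adjusted p = 0.711). No region of height 3 lay within 1 kb of the listed starts of TP63 or KRT14 in any library, so these defining markers of squamous cells could not be checked at the promoter.

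The other pair of squamous regulators was called, SOX2 higher in KYSE510 and KLF5 higher in KYSE150. SOX2, a factor of pluripotent cells and of the foregut, had no peak of any height in KYSE150 and heights of 17, 7 and 9 in KYSE510 (chr3:181711673-181712042, score difference 1.56 ± 0.177 SE, n = 3 per line, limma adjusted p = 0.00106). SOX2 had passed the filter through KYSE510 alone and so had to differ. Its local background ratio in KYSE510 was 1.35. KLF5, a Krüppel-like factor of proliferating epithelium, had 37, 27 and 32 in KYSE150 and 20, 24 and 15 in KYSE510 (score difference -0.77 ± 0.17 SE, limma adjusted p = 0.0146). The KLF5 groups did not overlap, and KLF5 was not called by rank of fold enrichment.

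Of 21 squamous transcription factors 18 were tested, 5 were higher in KYSE510 and 1 in KYSE150. Beside SOX2, those higher in KYSE510 included ELF3, FOXE1 and OVOL1. ELF3, an epithelial ETS factor, had 15, 12 and 15 in KYSE150 and 44, 31 and 27 in KYSE510. Its local background ratio in KYSE510 was 3.33, and it was not called by rank of fold enrichment. FOXE1 had 6, 6 and 6 in KYSE510 and only peaks of height 1 or 2 in KYSE150. With peaks of any height counted its score difference went from 1.15 to 0.4 and it was not called (limma adjusted p = 0.0915). OVOL1 had 5, 3 and 3. GRHL3 varied among the KYSE150 libraries (0, 7 and 0 against 20, 9 and 7) and was not called (limma adjusted p = 0.135). Of 128 distal regions near the 21 genes, 39 were higher in KYSE510 and 12 in KYSE150 (30.5 and 9.38%, beside 27.4 and 13.1% of the 39048 distal regions of all genes). Under the minimum of 6 in KYSE510, 4 of 17 tested factors were higher in KYSE510 and 2 in KYSE150.

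Among 39 genes of epithelial adhesion and basal keratinocytes 34 were tested, 5 were higher in KYSE510 and 2 in KYSE150, or 5 and 4 of 32 with the minimum of 6 in KYSE510. KRT7, a keratin of glandular epithelium, had no KYSE150 peak and 17, 11 and 11 in KYSE510 (score difference 1.73 ± 0.123 SE, limma adjusted p = 0.000291). KRT17, a keratin of activated basal cells, had 3, 0 and 3 against 34, 17 and 20 (limma adjusted p = 0.0133). The laminin-332 chains LAMA3 (21, 31 and 28 against 75, 78 and 61) and LAMB3 (18, 13 and 17 against 63, 39 and 32) and the basal calcium-binding gene S100A2 (20, 18 and 28 against 66, 57 and 45) were also higher in KYSE510. The ratio in KYSE510 was 2.12 at LAMA3, 4.62 at LAMB3 and 3.57 at S100A2, and the calls of LAMB3 and S100A2 were not made by rank of fold enrichment. PKP1, a desmosomal plaque protein, was higher in KYSE150 (9, 5 and 8 against 0, 3 and 0). KRT13, a keratin of the suprabasal oesophagus, was also higher in KYSE150 (3, 7 and 3 against 0, 3 and 0), and its call was lost without KYSE150 replicate 2 and without KYSE510 replicate 1 or 3.

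Cornified differentiation genes, which build the outer layers of squamous epithelium, were called in both directions. Of 32 genes 21 had a region and 13 were tested, with 4 higher in KYSE510 and 2 in KYSE150. All 4 had passed the filter through KYSE510 alone, and of the 9 with a peak in both lines 0 were higher in KYSE510. The direction turned with the minimum of 6 in KYSE510, at 1 of 10 tested genes higher in KYSE510 and 3 in KYSE150. SBSN had 11, 13 and 11 in KYSE510 and no KYSE150 peak (limma adjusted p = 0.000306). TGM1, which cross-links the cornified envelope, had 5, 11 and 6, and SPRR1A, one of its substrates, had 5, 5 and 4. S100A12 was higher in KYSE150 (4, 10 and 7 against 5, 0 and 0, limma adjusted p = 0.0281), with overlapping heights, and its call was lost without KYSE150 replicate 2 or 3 and without KYSE510 replicate 2 or 3. EVPL, the envelope protein envoplakin, was higher in KYSE150 by rank (18, 18 and 15 against 17, 14 and 9, limma adjusted p = 0.0429), also with overlapping heights.

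Mesenchymal genes were called in both directions. Of 32 genes 17 were tested, 7 were higher in KYSE510 and 3 in KYSE150, 8 having passed the filter through KYSE510 alone, with a median percentile difference of 28.7. Of the 8 with a peak in both lines 0 were higher in KYSE510 and 2 in KYSE150. Under the minimum of 6 in KYSE510, 3 of 11 tested genes were higher in each line, and the median score difference was 0.12, against 0.74 with equal heights. Higher in KYSE510 were TGFBI (21, 19 and 21), the collagen cross-linking enzyme LOX (21, 12 and 13), SPARC (13, 7 and 11), COL5A1 (9, 5 and 6), the N-cadherin gene CDH2 (5, 4 and 7), TWIST2 (4, 7 and 3) and FN1 (4, 4 and 3), all without a KYSE150 peak of height 3. TGFBI had a score difference of 2.14 ± 0.116 (SE, n = 3 per line; limma adjusted p = 0.000259). COL5A1, CDH2, TWIST2 and FN1 were not tested with the minimum of 6. Higher in KYSE150 were 3 genes of the list. The intermediate filament gene VIM had 18, 15 and 14 in KYSE150 and 6, 5 and 4 in KYSE510 (limma adjusted p = 0.00103), and the repressor ZEB1 had 9, 7 and 7 against 4, 6 and 3 (limma adjusted p = 0.017). TWIST1 had 7, 5 and 9 against no KYSE510 peak (limma adjusted p = 0.000309). The score difference of VIM, with the minimum of 6 in KYSE510, went from -1.18 to -1.83. ZEB1 was not called by rank of fold enrichment (limma adjusted p = 0.0517). In the silenced libraries it was called in the same direction and VIM (limma adjusted p = 0.092) and TWIST1 (limma adjusted p = 0.0755) were not.

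Markers of other cell types were few among the tested promoters. Of 25 columnar and glandular markers 6 were tested and 2 were higher in KYSE510. The pioneer factor FOXA1 had 6, 7 and 7 in KYSE150 and 41, 36 and 43 in KYSE510 (score difference 1.23 ± 0.126 SE, limma adjusted p = 0.000733; 0.64 by rank of fold enrichment). FOXA2 had 8, 7 and 9 in KYSE510 and a single KYSE150 peak of height 1. GATA6 (3, 7 and 9 against 20, 15 and 19) and the mucus-pathway gene AGR2 (3, 3 and 0 against 9, 13 and 11) did not overlap between the lines and did not pass the test, at limma adjusted p values of 0.0814 and 0.0733. The intestinal markers CDX2 and KRT20 had no region. Near the 25 genes 25 of 57 distal regions were higher in KYSE510 and 4 in KYSE150, beside 27.4 and 13.1% of those of all genes, which were not matched by chromosome. Under the minimum of 6 in KYSE510, 3 of 6 markers were higher in KYSE510 and 0 in KYSE150.

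Of 16 blood markers 5 were tested. CORO1A, an actin regulator of leukocytes, had 32, 27 and 19 in KYSE510 and no KYSE150 peak (limma adjusted p = 0.000259), and the plastin gene LCP1 had 8, 5 and 8 in KYSE150 and no KYSE510 peak (limma adjusted p = 0.000298). The pan-leukocyte marker PTPRC and the T cell marker CD3D had no region. ROBO4 was the 1 tested endothelial marker of 12 and was higher in KYSE150 (14, 28 and 26 against 10, 9 and 6, limma adjusted p = 0.00778), while PECAM1 and KDR had no region. None of the 3 tested melanocyte markers of 8 was called.

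Of 17 neural and neuroendocrine markers 8 were tested, 4 were higher in KYSE510 and 1 in KYSE150, or 1 and 1 of 3 with the minimum of 6 in KYSE510. POU3F2, a neural POU factor, had 27, 21 and 22 in KYSE510 (limma adjusted p = 0.000259), and SCG2, NEUROG2 and SNAP25 had 3 to 10. SYT1, a synaptic vesicle protein, had 5, 9 and 9 in KYSE150 and no KYSE510 peak (limma adjusted p = 0.000301). NEUROD1, CHGA and INSM1, which define neuroendocrine cells, had no region.

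Patterning transcription factors, which set the position and organ of a tissue during development, included many promoters with peaks in KYSE510 and none of height 3 in KYSE150. Of 102 such genes outside the HOX clusters 51 were tested, 24 were higher in KYSE510 and 3 in KYSE150, and the median percentile difference was 23.4, against -0.159 over all genes. SIX2 had 34, 33 and 23 in KYSE510 and no KYSE150 peak of any height (chr2, score difference 2.49 ± 0.135 SE, n = 3 per line, limma adjusted p = 0.000259). LHX2 had 30, 20 and 15 and NKX6-1 had 19, 24 and 17, each with no KYSE150 peak. ZIC4, LHX9, NKX2-1, ALX4, GATA2, DLX6, GBX2, TBX3 and DLX5 had KYSE510 heights from 7 to 21 and no KYSE150 peak of height 3. The local background ratio in KYSE510 was 1.2 to 2.69 at these 12 genes.

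The list rests largely on the filter. Of its 51 tested members 20 had passed through KYSE510 alone. Among the 31 with a peak in both lines, 4 were higher in KYSE510 (SIX4, IRX2, FOXQ1 and NKX2-5, of which SIX4 and IRX2 were not called by rank of fold enrichment) and 3 in KYSE150 (FOXD1, SOX9 and IRX3, of which SOX9 and IRX3 were not). With the minimum of 6, 44 members were tested, 19 were higher in KYSE510 and 3 in KYSE150, beside 11.3 and 11.9% of all genes. In the silenced libraries 23 and 2 of the 51 were called, beside 9.93 and 9.02% of all genes. FOXD1, a forkhead factor of the stroma, had 27, 19 and 29 in KYSE150 against 11, 12 and 5 (limma adjusted p = 0.00784). SOX9 had 16, 11 and 15 against 13, 5 and 7 and was not called with the minimum of 6 (limma adjusted p = 0.0549).

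HOX genes, which encode position along the body axis, had few tested promoters. Of 21 HOXA and HOXB genes 6 were tested and HOXB9 (4, 4 and 4 in KYSE510) was higher in KYSE510. Of 18 HOXC and HOXD genes 7 were tested, 3 were higher in KYSE510 and 3 in KYSE150, or 2 and 3 of 6 with the minimum of 6 in KYSE510, where 0 of 5 HOXA and HOXB genes were called. HOXD11 (11, 12 and 9), HOXD1 (13, 7 and 11) and HOXC11 (17, 7 and 5) were higher in KYSE510 and had no KYSE150 peak of height 3. HOXC4, HOXC5 and HOXC6 share 1 region, which was called higher in KYSE150 (6, 11 and 7 against 7, 6 and 6, limma adjusted p = 0.0458) with overlapping heights, and the call was lost without any 1 library.

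**Figure D5:**
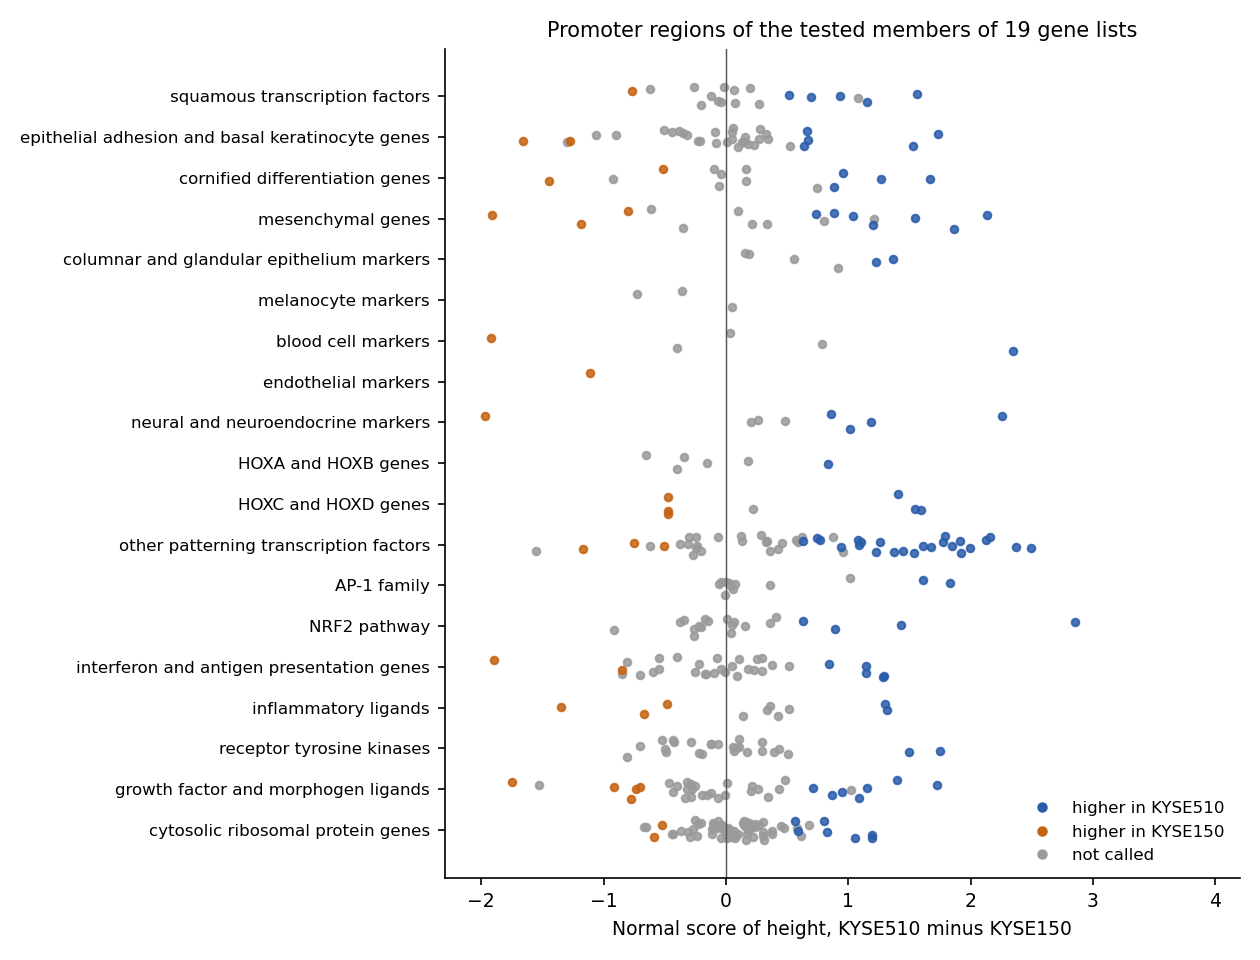
Difference in the normal score of height, KYSE510 minus KYSE150, at the promoter region of each tested member of the 19 gene lists, 1 point per gene, with points spread vertically at random and coloured by the call. Patterning transcription factors have 24 points called to the right and 3 to the left, while receptor tyrosine kinases and ribosomal protein genes lie mostly around 0.

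Among signalling ligands, calls went both ways. Of 66 growth factor and morphogen ligands 36 were tested, 7 were higher in KYSE510 and 5 in KYSE150. The balance turned to 6 and 8 of 32 with the minimum of 6 in KYSE510. The neighbouring EGF-family genes split between the lines: AREG had 12, 11 and 15 in KYSE150 and 7, 5 and 5 in KYSE510 (limma adjusted p = 0.0024; score difference -0.91, or -1.58 with the minimum of 6), while EREG (8, 10 and 7) and EPGN (5, 4 and 5) had peaks of height 3 only in KYSE510. The BMP ligands BMP6 (13, 15 and 10), BMP7 (7, 6 and 4) and BMP4 (12, 7 and 10, with 0, 0 and 3 in KYSE150) and the WNT ligands WNT7B (24, 19 and 22 against 5, 5 and 8) and WNT9A (43, 29 and 27 against 13, 6 and 7) were higher in KYSE510. Higher in KYSE150 were TGFB2 (21, 30 and 23 against 18, 13 and 16), the WNT antagonist DKK1 (13, 19 and 26 against 11, 10 and 12), SEMA3C (25, 22 and 20 against 13, 12 and 13) and PDGFC (16, 8 and 10 against 0, 0 and 6). The PDGFC call was lost without any 1 KYSE150 library and without KYSE510 replicate 1 or 2. By rank of fold enrichment BMP4, WNT7B, WNT9A, TGFB2 and DKK1 were not called.

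Of 27 inflammatory ligands 10 were tested, with 2 higher in KYSE510 and 3 in KYSE150, or 1 and 3 of 9 with the minimum of 6 in KYSE510. CSF2, the gene of GM-CSF, had 18, 25 and 23 in KYSE150 and 5, 7 and 6 in KYSE510 (score difference -1.34 ± 0.155 SE, limma adjusted p = 0.00111). IL18 (18, 21 and 14 against 12, 11 and 10) and IL6 (13, 10 and 12 against 9, 9 and 9) were also higher in KYSE150. The epithelial cytokine TSLP (8, 8 and 6) and the death ligand TNFSF10 (12, 5 and 7) were higher in KYSE510, with no KYSE150 peak of height 3.

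Of 46 interferon and antigen presentation genes 32 were tested, 5 were higher in KYSE510 and 2 in KYSE150. Raising the minimum in KYSE510 to 6 turned the balance to 2 and 3 of 27. CD274, which encodes the immune checkpoint ligand PD-L1, had 60, 50 and 54 in KYSE150 and 10, 10 and 12 in KYSE510 (chr9:5450253-5450746, score difference -1.89 ± 0.131 SE, n = 3 per line, limma adjusted p = 0.000282). The local background ratio there was 1.77 in KYSE150 and 1.84 in KYSE510, and by rank of fold enrichment the score difference was -0.67, still called. The antiviral genes OAS1 (0, 0 and 4 against 15, 12 and 10), OAS2 (9, 6 and 7 in KYSE510) and MX2 (6, 5 and 7), the peptide-loading gene TAPBP (6, 5 and 7) and HLA-DPB1 (4, 6 and 3) were higher in KYSE510. The OAS1 call was lost without KYSE150 replicate 1 or 2 and without any 1 KYSE510 library. In the silenced libraries OAS1 and HLA-DPB1 were called in the same direction, and OAS2, MX2 and TAPBP were not.

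Of 40 receptor tyrosine kinases 26 were tested and 2 were higher in KYSE510, FGFR1 (14, 14 and 11, limma adjusted p = 0.000268) and the neurotrophin receptor NTRK2 (6, 11 and 12, limma adjusted p = 0.00198). Neither had a KYSE150 peak of height 3, and no member was higher in KYSE150, as with the minimum of 6 (2 and 0 of 23). Of 15 AP-1 family genes 12 were tested and 2 were higher in KYSE510, among them BATF (10, 14 and 9), and 2 of 12 with the minimum of 6. Of 24 genes of the NRF2 pathway, which handles oxidative stress, 20 were tested and 4 were higher in KYSE510, or 3 of 19 and 1 in KYSE150 with the minimum of 6. GPX2, a glutathione peroxidase, had 59, 43 and 30 in KYSE510 and only peaks of height 1 or 2 in KYSE150 (score difference 2.85 ± 0.156 SE, limma adjusted p = 0.000259). Its local background ratio in KYSE510 was 4.67, and its part in the result was not tested. AKR1B10, an aldo-keto reductase, had 8, 8 and 10 in KYSE510 and no KYSE150 peak. ME1, malic enzyme, had 5, 3 and 3 against 17, 24 and 15. ALDH3A1 had 3, 4 and 3 in KYSE510 and no peak of height 3 in the silenced libraries of either line. The regulators NFE2L2 and KEAP1 were not called.

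Ribosomal protein genes, which are active in all cells, served as a reference. Of 72 genes 70 were tested, 7 were higher in KYSE510 and 2 in KYSE150, and 61 were not called, with a median percentile difference of 1.16. Raising the minimum in KYSE510 to 6 left 69 tested, 8 higher in KYSE510 and 2 in KYSE150. RPS9 (5, 6 and 11 against 52, 35 and 35), RPL18 (21, 23 and 21 against 57, 48 and 49), RPL13A (8, 12 and 9 against 29, 22 and 30) and RPS16 (0, 0 and 3 against 11, 11 and 8) lie on chromosome 19, and RPS29 and RPL11 on chromosomes 14 and 1. The RPS16 call was lost without KYSE150 replicate 1 or 2 and without any 1 KYSE510 library, and the RPL11 call without KYSE150 replicate 1 or 3 and without any 1 KYSE510 library. The local background ratio at these 4 genes on chromosome 19 was 1.95 to 4.69 in KYSE510 and 1 to 1.18 in KYSE150, and its part in the calls was not tested. By rank of fold enrichment RPL18 and RPL13A were not called, and the score difference of RPL18 turned from 0.56 to -0.34.

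The windows before the gene starts differed little in base content between the directions. The median GC content was 64.4% in 1271 genes higher in KYSE510, 64.8% in 858 higher in KYSE150 and 66% in 7468 tested and not called. Of 16 motifs searched, the ETS motif CCGGAAG differed most in share among the common ones, at 10.2% of windows higher in KYSE510, 19.2% of those higher in KYSE150, 18.2% of those not called and 12.4% of all windows. The SP/KLF motif was in 50.5, 54.7 and 54.9%, and the AP-1 motif TGANTCA in 5.74, 5.59 and 4.12%. A match says only that these letters are in the window.

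The HCP5-silenced libraries gave a second set of 3 libraries per line over the same regions. There 21.2% of the 74791 regions were higher in KYSE510 and 8.57% in KYSE150. Of the regions called in the control libraries, 12261 (60.4%) of those higher in KYSE510 and 4024 (44.9%) of those higher in KYSE150 were called in the same direction. Only 8 and 19 were called in the opposite direction. As a share of the calls in silenced libraries, 77.5 and 62.8% were also called in the controls. Regions were merged and filtered on the control peaks, so those with peaks only after silencing could not enter these counts. Among list members, 59 of 85 promoters higher in KYSE510 and 15 of 29 higher in KYSE150 were called again, and none was called in the opposite direction. With the minimum of 6 in KYSE510, 60 of the 85 were called and 25 were not tested, and 28 of the 29 were called.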

How the data were processed

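The authors deposited 1 peak list per library. Per the submitters' processing notes, which give no role or order, the tools were Trimmomatic 0.36, Bowtie2 2.2.6, Picard 2.8.2, MACS2 2.1.1 and bedtools 2.25.0, with GRCh38. Per the file headers, pileup is the height of a peak, a signal in whole numbers, and fold enrichment is a ratio. A background was computed from each deposited peak by taking that ratio as height + 1 over background + 1, a form that no label or header states. The deposited p-value and FDR columns are linear. No normalisation between libraries is stated. Per the labels, each list belongs to 1 library.

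The lines were grouped by the labels. Distances to starts used RefSeq (GRCh38.p14) starts for 15100 of 19122 autosomal protein-coding genes and both gene ends for the other 4022, which include all of chromosome 8. Python 3.11.15, numpy 2.4.6, pandas 2.3.3, scipy 1.17.1, matplotlib 3.10.9, R 4.3.3 and limma 3.58.1 were used. Named were, among calls without overlap and per direction, the 6 promoter and 6 distal regions with the largest percentile difference, the 5 genes with most called distal regions and 3 windows of 1 Mb with at least 20 tested regions, and up to 4 members of each list with the largest differences. Some items that this rule or the lists name are not reported here. Other list members were named after their values were seen. The comparison and lists were chosen with earlier results of these data known. In data simulated from these heights over 74791 regions, 48 of 50 regions raised 4-fold in KYSE510 and 48 of 50 in KYSE150 were recovered, all of 50 at 8-fold in each direction, and 35 of 2000 unchanged regions (1.75%) were called. The changed and unchanged regions were drawn only from those with a peak in all 6 libraries and a mean height well above the minimum. Weak regions, and the 82.2% of KYSE510 calls with no KYSE150 peak of height 3, were therefore not covered by these counts.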

Additional observations from a re-analysis of the deposited data

How the results depend on the processing

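The counts of calls depended on the minimum height and the filter. Regions higher in KYSE510 numbered 10930 with a minimum of 6 in that line, 8751 at an FDR of at most 1e-05, 12968 with no filter on libraries and 2393 among regions in all 6 libraries, against 20300. Those higher in KYSE150 numbered 5381, 4928 and 5515 under the last 3, against 8970. The promoter share difference of -5.89 became 0.165 with a minimum of 2 and 2.78 with a minimum of 6 in KYSE510. Leaving out 1 library gave 17621 to 19024 and 6547 to 7925 calls and a share difference of -6.22 to -5.61. The replicate block, for which same-numbered libraries correlated at 0.053, 0.044 and 0.005 and so share only a number, gave 18253 and 7279. Counting peaks of any height gave 13866 and 8504, and leaving out regions of raised background 19076 and 8688, both chosen after seeing the data. Score differences reversed at the KYSE150 region in PCBD2 when peaks within 100 bp were merged (0.43, called), and in silenced libraries at ALDH3A1 (-0.25), TAPBP (-0.25) and RPL11 (-0.47), none of which was called there. ALDH3A1 and TAPBP had no peak of height 3 in any silenced library, and their value is the difference between the lines in the score of no peak. Among the 76 called named regions 61 kept their call in silenced libraries, 73 by rank of fold enrichment and 71 with the replicate block. The cause of the other changes was not tested. Depth is unknown and limits weak regions.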
